A study of Mus musculus with 14 samples.

Results

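The comparison described here asks where the gene expression difference between PSGL1lo and PSGL1hi CD4+ T cells was not the same in liver as in spleen of mice with chronic graft-versus-host disease (cGVHD). For each gene the log2 ratio of PSGL1lo to PSGL1hi cells, called the PSGL1lo effect below, was taken in each tissue, and the spleen value was subtracted from the liver value. The contrast rests on 8 of the 14 libraries of the series, 2 in each of 4 groups. Of 25017 genes in the deposited file, 13780 had enough counts to be tested, and 13535 of these were compared after 58 histone genes and 187 small RNA genes were set aside, because their RNAs were near 0 in the liver libraries. A positive difference means that the PSGL1lo effect was higher in liver, and a negative one that it was lower in liver. It does not say in which tissue the level itself was higher.

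All 8 libraries came from donor CD4+ T cells of strain C57BL/6, taken from BALB/c hosts that had been given donor splenocytes together with bone marrow depleted of T cells. The tissues were collected on day 30 after the transplant. The groups were liver PSGL1lo, liver PSGL1hi, spleen PSGL1lo and spleen PSGL1hi, all with cGVHD, so the disease and the transplant were shared and no healthy liver stands beside them. The other 6 libraries, from lung and from a spleen without disease, were not part of the contrast. They entered the filter on low counts, the scaling and the estimate of the spread. The labels do not say that the libraries of a group came from separate mice, so p-values measure the spread between these libraries, which may be technical.

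PSGL1 (P-selectin glycoprotein ligand 1, gene Selplg) is a mucin-like protein on T cells that binds selectins on activated endothelium and platelets, and so takes part in the entry of T cells into inflamed tissue. Low PSGL1 on CD4+ T cells is known from T follicular helper cells, which carry the transcription factor Bcl6 and the chemokine receptor Cxcr5 and help B cells. In cGVHD, donor CD4+ T cells are found both in lymphoid organs and in target organs such as the liver, where they drive inflammation and help B cells outside follicles.

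The gate could be followed in the counts. Selplg was measured at 612 and 540.2 CPM in liver PSGL1lo against 909 and 937 CPM in liver PSGL1hi cells, and at 281 and 238 against 516 and 491 CPM in spleen. CPM are read counts scaled to the library size corrected by TMM, edgeR's scaling between libraries. The low fraction lay below the high fraction in each tissue without overlap, and the difference between tissues was 0.28 ± 0.13 on the log2 scale (SE), not past the threshold (adjusted p = 0.2). Cd4 was at 1512 to 2686 CPM in every library, with a difference between tissues of -0.09 ± 0.08 (adjusted p = 0.592). Of the 9 markers of the T cell gate tested, 0 were called different between tissues by edgeR, with 3 at an unadjusted p under 0.05 and 1 called lower by DESeq2 and by limma voom. The libraries of the 4 groups held 13283091 to 33532595 counts, and 3 counts, up to which a gene without counts may still be present, came to 0.0859 to 0.223 CPM (counting error only).

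Several features of whole libraries moved with the contrast. The library numbers of spleen and liver come from different runs of numbers, and these cannot be told apart from the tissue, although each PSGL1lo effect lies within 1 such run. The ribosomal RNA precursor Rn45s stood at 3584 to 8627 CPM in liver and 17708 to 32536 CPM in spleen, the histone genes together at 58.8 to 70.2 against 4652 to 15510 CPM, and the small RNA genes together at 202 to 246 against 20183 to 32612 CPM. The biological coefficient of variation between the replicates was 12.3% in liver PSGL1lo and 3.80% to 8.19% in the other 3 groups. Replicate 1 of liver PSGL1lo was the deepest of the 8 libraries and had the fewest genes with a count, 14036 against 14824 to 15445. Its sample index also lies outside the run of the other liver and lung libraries.

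Most genes whose PSGL1lo effect differed between tissues had changed in the spleen and were not called, or changed less, in the liver. At an adjusted p under 0.05 (edgeR's quasi-likelihood test, Benjamini-Hochberg over all genes tested), the effect was higher in liver for 340 genes (2.51% of those compared) and lower in liver for 571 genes (4.22%). Of the 340, 159 (46.8%) fell in spleen PSGL1lo cells with no call in liver, and 87 (25.6%) fell in both tissues. Another 53 (15.6%) rose in liver alone by the calls, 17 rose in both and 4 were called in neither tissue. Of the 571, 355 (62.2%) rose in spleen PSGL1lo cells with no call in liver, 118 (20.7%) fell in liver with no call in spleen, 45 rose in both, 20 fell in both and 9 were called in neither. The median PSGL1lo effect of the 340 genes was -0.72 in spleen and 0.03 in liver, and that of the 571 genes 0.47 in spleen and -0.11 in liver.

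The background was uneven between the tissues. In spleen 15.5% of the genes were called higher and 16.6% lower in PSGL1lo cells, and in liver 8.61% and 12.5%. Of the 1772 genes called in both tissues, 1728 had the same sign. The other 44 had opposite signs, 20 higher in liver and lower in spleen and 24 the other way, and all 44 also passed the test of the difference (0.325% of genes). Across the 13535 genes the effects of the tissues had a Pearson r of 0.41 and a Spearman rho of 0.47, given as a description since genes are not independent. The counts rested on single libraries. Without liver PSGL1lo replicate 2 they were 897 higher, 1553 lower and 270 opposite, and without replicate 1 of that group 160, 253 and 24. Leaving out either liver PSGL1hi library, either spleen PSGL1lo library or spleen PSGL1hi replicate 2 gave 117 to 165 higher and 198 to 325 lower, and leaving out spleen PSGL1hi replicate 1 gave 303 and 518.

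**Figure D1:**
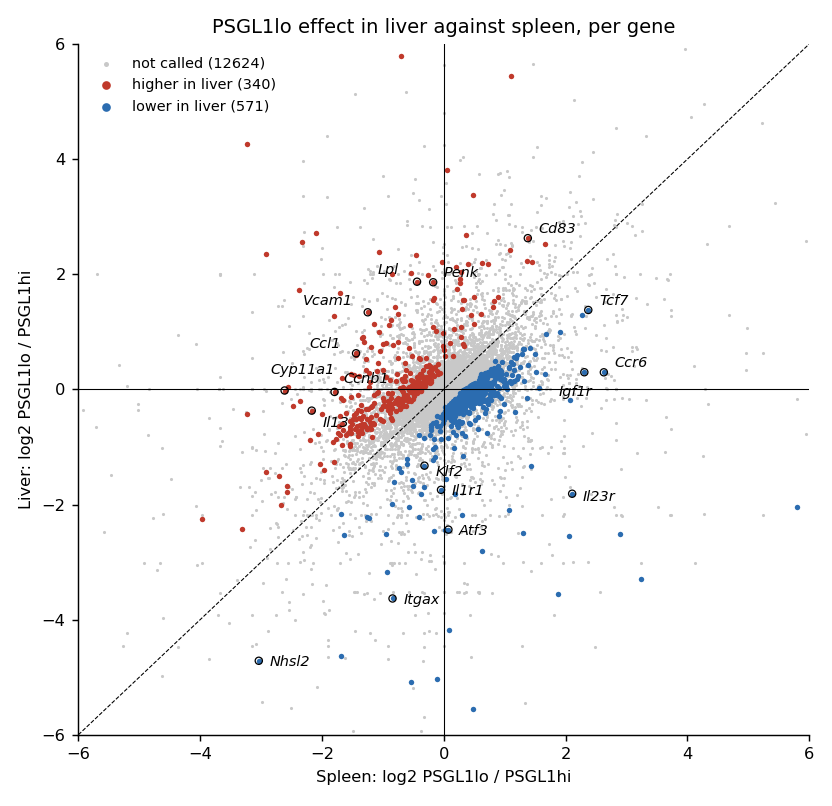
Each point is a gene, with its log2 ratio of PSGL1lo to PSGL1hi in spleen on the x axis and in liver on the y axis (n = 2 libraries per group); red and blue points are the 340 and 571 genes whose effect was called higher or lower in liver, and 32 genes lie beyond the axes. Most coloured points lie near the horizontal line of no change in liver and away from the vertical line of no change in spleen, with Il23r far to the lower right and Vcam1 in the upper left.

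Transcript length moved with the difference. Genes with a lower effect in liver had a median transcript length of 5246.5 bases, those with a higher effect 2792 bases and all genes 3299 bases. Over 10298 genes above 3 CPM on average, Spearman's rho between length and the difference was -0.37, between length and the liver effect -0.05 and between length and the spleen effect 0.27. In the longest of 5 equal parts of these genes 26 were higher and 277 lower in liver, and in the shortest 98 and 28. With length entered as an offset (chosen after seeing the data), 332 genes were higher and 350 lower. This offset was fitted in each library on the more abundant genes and applied to every gene with a known length. Some calls of named genes that were lost with the offset are given beside the gene. List counts that changed with this offset are given below, beside the list or together after the last of them. The part of length in single results was not tested otherwise.

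**Figure D2:**
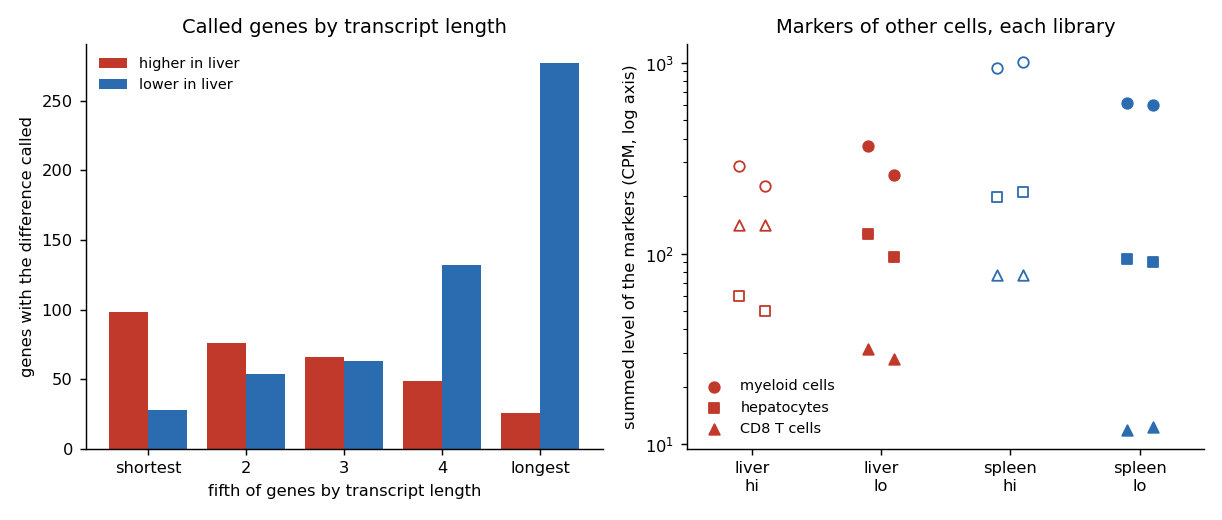
The left panel gives the number of genes with the difference called in each of 5 equal parts of the genes by transcript length, and the right panel the summed level of the markers of 3 other cell types in each library (log axis; filled points PSGL1lo, open points PSGL1hi, red liver, blue spleen). The bars for lower in liver climb from 28 to 277 genes with length, and the myeloid sums lie between 227 and 365 CPM in liver and between 601 and 1003 CPM in spleen.

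Genes of the Th17 program, which in CD4+ T cells is sustained by the cytokine IL-23, included Il23r, which moved in opposite directions in the tissues. Il23r encodes the specific chain of the IL-23 receptor. It was measured at 1.12 and 1.31 CPM in liver PSGL1lo and 3.91 and 4.53 CPM in liver PSGL1hi, but at 4.77 and 5.49 CPM in spleen PSGL1lo and 0.983 and 1.38 CPM in spleen PSGL1hi libraries. The low fraction was thus the lower in liver and the higher in spleen, with no overlap in either tissue. The effect was -1.81 ± 0.27 in liver and 2.11 ± 0.29 in spleen, a difference of -3.92 ± 0.40 (edgeR, adjusted p = 6.01e-06).

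Ccr6, the receptor for the chemokine CCL20 on Th17 cells, was present in both liver fractions and largely in the low fraction of spleen. Its levels were 11.9 and 10.7 CPM in liver PSGL1lo, 9.93 and 8.48 CPM in liver PSGL1hi, 7.67 and 7.65 CPM in spleen PSGL1lo and 1.08 and 1.38 CPM in spleen PSGL1hi libraries. Spleen PSGL1hi stood apart from the other 3 groups. The difference between tissues was -2.33 ± 0.28 (adjusted p = 4.76e-05), with a liver effect of 0.30 ± 0.16 that did not pass the test.

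Il1r1, the signalling receptor of interleukin 1, showed the reverse arrangement, with liver PSGL1hi standing apart. Levels were 25.1 and 24.5 CPM there, against 6.33 and 8.63 CPM in liver PSGL1lo, 7.97 and 7.45 CPM in spleen PSGL1lo and 7.77 and 8.13 CPM in spleen PSGL1hi libraries. The difference was -1.70 ± 0.22 (adjusted p = 8.42e-05). The cytokine gene Il22 was near the detection limit in all groups: 0 and 0.126 CPM in liver PSGL1lo, 0.629 and 0.725 CPM in liver PSGL1hi, 0.223 and 0.457 CPM in spleen PSGL1lo and 0.0468 and 0.13 CPM in spleen PSGL1hi. Its difference was called (adjusted p = 0.0203), but with groups at that limit its fitted size is not given.

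Of 13 Th17 genes tested, 5 had a lower and 1 a higher effect in liver, and the median difference was -0.22, against -0.01 over all genes. Over all genes compared 2.51% were called higher and 4.22% lower, and each list count below stands beside these shares. With the length offset 4 remained lower. The other 2 called members were Rora, which encodes a nuclear receptor (-0.57 ± 0.11), and Csf2, the gene of the cytokine GM-CSF (0.92 ± 0.20). The Il17a levels were 1.57 and 1.78 CPM in liver PSGL1hi and at most 0.346 CPM in the other 6 libraries.

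Type 2 cytokine genes differed in the other direction. Il4, which encodes the cytokine of Th2 and T follicular helper cells that drives IgE and IgG1, stood at 4.21 and 3.03 CPM in liver PSGL1lo, 1.84 and 2.32 CPM in liver PSGL1hi, 10.1 and 13.4 CPM in spleen PSGL1lo and 20.4 and 24.9 CPM in spleen PSGL1hi libraries. It rose in the low fraction of liver by 0.81 ± 0.28 and fell in that of spleen by 0.95 ± 0.22. The difference was 1.75 ± 0.36 (adjusted p = 0.00566).

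Il13, a Th2 cytokine gene that acts on epithelium and fibroblasts, was far lower in the low than in the high fraction of spleen and low in both fractions of liver. Its levels were 4.01 and 2.91 CPM in liver PSGL1lo, 5.12 and 4.02 CPM in liver PSGL1hi, 11.2 and 14.8 CPM in spleen PSGL1lo and 60.7 and 56.7 CPM in spleen PSGL1hi. The liver fractions were close (effect -0.37 ± 0.23, not called), and the difference between tissues was 1.80 ± 0.30 (adjusted p = 0.00104).

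Ccl1, the gene of the chemokine that binds the receptor CCR8, gave opposite effects. It was at 40.4 and 41.8 CPM in liver PSGL1lo, 22.6 and 30.4 CPM in liver PSGL1hi, 12.5 and 14.4 CPM in spleen PSGL1lo and 34.1 and 39 CPM in spleen PSGL1hi. The low fraction was the higher in liver and the lower in spleen without overlap, and the difference was 2.07 ± 0.20 (adjusted p = 4.8e-06). Ccr8 itself rose in liver PSGL1lo cells by 0.68 ± 0.10 and not in spleen (0.00 ± 0.10), a difference of 0.68 ± 0.15 (adjusted p = 0.00765).

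Of 14 Th2 genes tested, 5 had a higher and 0 a lower effect in liver, with a median difference of 0.52. Beside Il4, Il13 and Ccr8 these were Il1rl1, the IL-33 receptor (0.74 ± 0.15), and Pparg, a nuclear receptor of Th2 cells (0.92 ± 0.25), both of which fell in each tissue and fell more in spleen. The Pparg call was lost in 9 settings other than the 1.5-fold test, limma voom and the length offset among them. The length offset left 4. Gata3, the transcription factor of Th2 cells, did not pass the test (-0.10 ± 0.12, adjusted p = 0.675), and the interval of its difference ran from -0.35 to 0.15. Genes of basophils, which also make IL-4 and IL-13, moved with these genes in spleen (chosen after their values were seen). Hdc, which makes histamine, was at 118 and 126 CPM in spleen PSGL1hi, 31.4 and 26.8 CPM in spleen PSGL1lo and 2.95 to 6.13 CPM in the liver libraries, a difference of 1.29 ± 0.20 (adjusted p = 0.000564). The basophil protease gene Mcpt8 was at 2.62 and 2.77 CPM in spleen PSGL1hi and at most 0.229 CPM in the other 6 libraries. The part of basophil RNA in the results on Il4, Il13 and Il1rl1 was not tested.

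**Figure D3:**
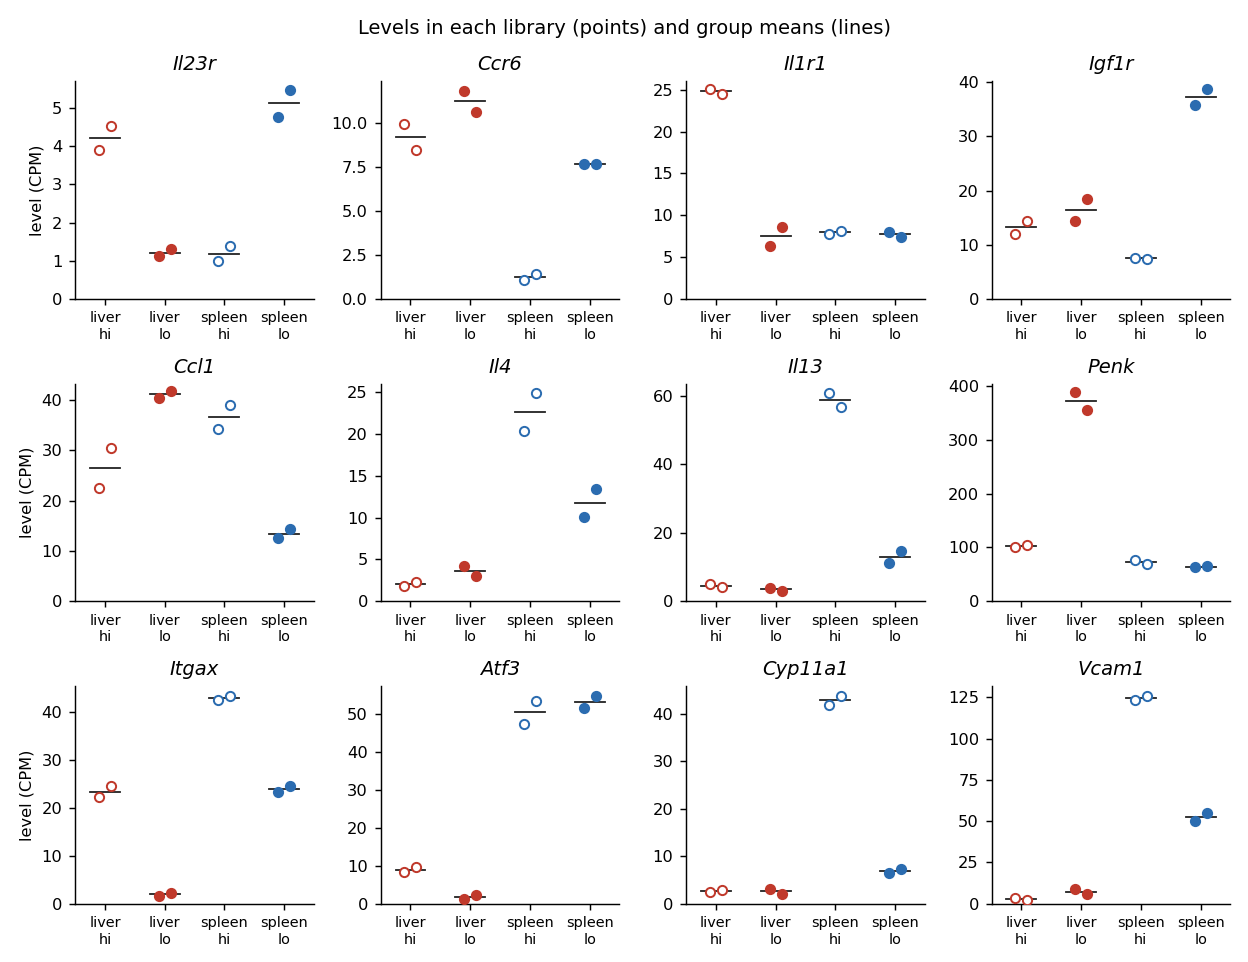
Levels of 12 genes in CPM in each of the 8 libraries (points; open PSGL1hi, filled PSGL1lo; red liver, blue spleen) with group means as lines. Il23r, Ccl1, Il4 and Vcam1 have the low fraction on opposite sides of the high fraction in the tissues, Penk is high in liver PSGL1lo alone, and Il1r1 is high in liver PSGL1hi alone.

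Genes of naive and memory T cells had mostly a lower PSGL1lo effect in liver: 9 of 22 were called lower, 2 higher, and the median difference was -0.49. Igf1r, which encodes the insulin-like growth factor 1 receptor, had the largest of them in the lower direction. Its levels were 14.3 and 18.4 CPM in liver PSGL1lo, 11.9 and 14.5 CPM in liver PSGL1hi, 35.8 and 38.7 CPM in spleen PSGL1lo and 7.63 and 7.43 CPM in spleen PSGL1hi. The spleen fractions lay far apart and the liver fractions overlapped, and the difference was -2.01 ± 0.19 (adjusted p = 2.98e-06).

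Tcf7 encodes TCF1, the transcription factor that keeps T cells in a stem-like and follicular helper state. It was at 736 and 691 CPM in liver PSGL1lo, 276 and 273 CPM in liver PSGL1hi, 283 and 305 CPM in spleen PSGL1lo and 56.9 and 56.7 CPM in spleen PSGL1hi. It rose in the low fraction of both tissues, by 1.38 ± 0.08 in liver and 2.37 ± 0.08 in spleen, and the difference of -0.99 ± 0.11 passed the test (adjusted p = 1.5e-05). Liver PSGL1hi and spleen PSGL1lo libraries thus held about the same level. Bach2, a repressor that restrains effector genes, rose in spleen only by the calls (0.91 ± 0.18 against -0.12 ± 0.16 in liver), a difference of -1.03 ± 0.24.

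Some genes for survival or recirculation, picked from several lists, fell in liver PSGL1lo cells and not, or less, in spleen. Their lists did not all move this way. The median difference was 0.07 for circulation and egress, 0.10 for chemokine receptors, 0.0004 for the Bcl-2 family and -0.49 for naive and memory genes. Klf2 is the factor that switches on the egress receptor gene S1pr1. It was at 68.2 and 59.1 CPM in liver PSGL1lo against 158 and 162 CPM in liver PSGL1hi, and at 97 and 86.7 against 119.8 and 109 CPM in spleen, a difference of -1.01 ± 0.19 (adjusted p = 0.00303). S1pr1, whose product guides T cells from tissue into lymph and blood, was at 48.7 and 52.3 against 152 and 157 CPM in liver and at 144 and 132 against 248 and 241 CPM in spleen, a difference of -0.79 ± 0.13 (adjusted p = 0.000863). Both genes were lowest in liver PSGL1lo libraries, clear of the other groups.

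The effect was also lower in liver for Gpr183, the receptor for oxysterols that positions cells in lymphoid tissue (-0.82 ± 0.11), for Satb1, a chromatin organiser of T cells (-0.70 ± 0.11), for Il7r, the interleukin 7 receptor (-0.57 ± 0.11), and for Bcl2, which protects cells from death (-0.58 ± 0.11). Each of these 4 was called lower in liver PSGL1lo than in liver PSGL1hi cells and was not called in spleen. The levels of Gpr183, Satb1 and Il7r were lowest in liver PSGL1lo libraries, those of Bcl2 in spleen PSGL1hi.

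Ccr7, a chemokine receptor for entry into lymph nodes, rose alike in both tissues (1.18 ± 0.16 and 1.11 ± 0.13), and the interval of its difference ran from -0.35 to 0.49. Of 17 genes of circulation and egress 1 was called higher and 3 lower in liver, with a median difference of 0.07. The lower ones were Klf2, S1pr1 and Itgal, the alpha chain of LFA-1 (-0.73 ± 0.10).

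Of 27 genes of tissue residency 4 had a higher and 3 a lower effect in liver, with a median difference of 0.06. Itgae, the CD103 chain that binds E-cadherin on epithelium, fell by 0.70 ± 0.09 in liver and by 1.65 ± 0.11 in spleen, and Itga1, a collagen-binding integrin chain, fell by 0.79 ± 0.11 and 1.70 ± 0.13. Their differences were 0.95 ± 0.14 and 0.91 ± 0.17. Xcl1, the chemokine that attracts cross-presenting dendritic cells, stood at 94.5 and 92.3 CPM in liver PSGL1lo against 49.1 and 45.6 CPM in liver PSGL1hi, with 11.7 to 15.2 CPM in all spleen libraries, with a 95% interval of the difference from 0.54 to 1.46 (adjusted p = 0.00867). Rgs2, a brake on G protein signalling, fell in liver and rose in spleen (difference -0.86 ± 0.11). The residency genes Cd69 (0.21 ± 0.13) and Cxcr6 (0.17 ± 0.11) did not pass the test.

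The list of follicular helper genes, which also holds genes for help to B cells, was split. The effects of Bcl6 and Cxcr5 were close in the tissues, while those of other members, Il21 and Tox2 among them, differed. Bcl6 rose by 1.53 ± 0.12 in liver and 1.53 ± 0.13 in spleen. Its levels were 45.5 and 46.1 CPM in liver PSGL1lo and 15.6 and 16.1 CPM in liver PSGL1hi. In spleen they were 28.3 and 29.8 CPM in PSGL1lo and 11.1 and 9.08 CPM in PSGL1hi. Cxcr5 rose by 1.78 ± 0.09 in liver and 1.90 ± 0.10 in spleen, and its difference lay between -0.40 and 0.17 (95% interval). Il21, the main cytokine of help to B cells, rose by 0.34 ± 0.09 in liver, from 86.2 and 83.2 CPM to 97.8 and 117 CPM, and by 0.92 ± 0.09 in spleen, from 127 and 133 CPM to 246 and 247 CPM, and the difference of -0.58 ± 0.12 passed the test (adjusted p = 0.00756).

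Of 26 genes on that list 6 had a lower and 3 a higher effect in liver (median difference -0.12). Those lower included Tox2, a factor that supports follicular helper differentiation (-0.87 ± 0.16), Maf, which drives Il21 (-0.56 ± 0.10), and Cd40lg, the CD40 ligand (-0.46 ± 0.12). Those higher were Il4, Batf, an AP-1 partner of IRF4 (0.42 ± 0.11), and Cebpa, a myeloid transcription factor that stood at 2.72 and 2.82 CPM in liver PSGL1lo and 0.584 and 0.616 CPM in liver PSGL1hi (1.56 ± 0.32). The differences of Icos (-0.23 ± 0.11), Pdcd1 (0.28 ± 0.10) and Prdm1 (-0.15 ± 0.13) did not pass the test. Outside the 1.5-fold test the Batf call was lost in 8 settings and the Cd40lg call in 6. Leaving out 1 library at a time gave 2 to 4 higher and 3 to 8 lower, and the Batf call was lost with the length offset.

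Regulatory T cell genes did not move as a block. Foxp3, the factor that defines these cells, fell by 2.19 ± 0.14 in liver and 2.25 ± 0.16 in spleen, with a difference between -0.40 and 0.51 (95% interval). Of 20 genes tested 6 were higher and 2 lower in liver. The largest of the higher differences was that of Lrrc32 (1.57 ± 0.36, edgeR, adjusted p = 0.0123). Lrrc32 was at 4.91 and 4.28 CPM in spleen PSGL1hi and at 0.884 to 1.34 CPM in the other libraries. Itgae (0.95 ± 0.14) and Ccr8 (0.68 ± 0.15) were also higher. The rest were Tnfrsf4 (OX40, 0.48 ± 0.11), Tnfrsf9 (4-1BB, 0.68 ± 0.15) and Ebi3, a chain of interleukin 35 (0.71 ± 0.21), costimulatory and cytokine genes that activated effector cells also express. The lower ones were the inhibitory receptor Tigit (-0.64 ± 0.09), which rose in spleen PSGL1lo cells with no call in liver, and the ectonucleotidase Nt5e (-0.62 ± 0.15), which rose in both tissues. The Ebi3 call was lost in 10 settings other than the 1.5-fold test, limma voom and the length offset among them.

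Of 25 Th1 and cytotoxic genes 2 were higher and 1 lower in liver, beside 2.51% and 4.22% of all genes compared. Prf1, the pore-forming protein of killer cells, fell by 1.39 ± 0.08 in liver and 1.97 ± 0.09 in spleen (difference 0.58 ± 0.12, adjusted p = 0.00759). Il12rb2, a chain of the receptor for IL-12, fell in liver by 0.53 ± 0.11 and was not called in spleen (0.13 ± 0.11), a difference of -0.66 ± 0.16. Gzmb, the main granzyme gene, fell by 1.57 ± 0.14 and 1.64 ± 0.14, with a difference between -0.34 and 0.48 (95% interval), and Ifng fell by 0.51 ± 0.07 and 0.32 ± 0.08, with a difference of -0.19 ± 0.11 that did not pass the test. Of 34 interferon-stimulated genes 0 were called in either direction by edgeR, with 6 at an unadjusted p under 0.05 and 0 by DESeq2 or limma voom, and their median difference was -0.03.

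Penk, which encodes the precursor of the enkephalin opioid peptides, had one of the clearest liver effects. Its levels were 389 and 356 CPM in liver PSGL1lo, 100.2 and 105 CPM in liver PSGL1hi, 64.1 and 65.1 CPM in spleen PSGL1lo and 77.2 and 68.7 CPM in spleen PSGL1hi. The liver low fraction stood apart from the other 3 groups, and the difference was 2.04 ± 0.18 (adjusted p = 2.98e-06). Cd83, a surface protein induced by NF-kappaB, rose in both tissues and more in liver (2.63 ± 0.16 against 1.38 ± 0.15, difference 1.25 ± 0.22). Cyp11a1, the enzyme that starts steroid hormone synthesis from cholesterol, is made by type 2 T cells. It was at 41.8 and 43.7 CPM in spleen PSGL1hi and at 2.15 to 7.38 CPM in the other 6 libraries (2.59 ± 0.32). The basophil gene Hdc was also highest in spleen PSGL1hi, and the part of basophil RNA in the Cyp11a1 result was not tested.

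Among the genes with the lowest difference was Itgax, the CD11c integrin chain, which activated T cells as well as dendritic cells make. It was at 1.6 and 2.27 CPM in liver PSGL1lo, 22.3 and 24.5 CPM in liver PSGL1hi, 23.4 and 24.6 CPM in spleen PSGL1lo and 42.6 and 43.4 CPM in spleen PSGL1hi. Liver PSGL1lo was far below the rest, and the difference was -2.79 ± 0.33 (adjusted p = 4e-05). Atf3, a stress-induced transcription factor, was at 1.17 and 2.32 CPM in liver PSGL1lo, 8.27 and 9.61 CPM in liver PSGL1hi and 47.4 to 54.8 CPM in all 4 spleen libraries, a difference of -2.51 ± 0.24 (adjusted p = 3.21e-06). Cd244a, the SLAM family receptor 2B4, was at 27.3 and 23.8 CPM in liver PSGL1hi and 4.5 to 9.12 CPM in the other 6 libraries (-1.82 ± 0.29). Nav1, a microtubule-binding protein, followed the same arrangement (-2.30 ± 0.33).

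Other genes that the rule named in this direction were Nhsl2, Iqcn and Apol8, with differences of -1.68 ± 0.41, -1.55 ± 0.31 and -1.46 ± 0.40. The Nhsl2 call was lost with the length offset. The list of immediate early AP-1 factors, which also holds Klf4, did not move as a block, with 1 of 18 higher and 3 lower. Klf4, which slows T cell division, rose in spleen by 1.51 ± 0.11 and in liver by 0.31 ± 0.10 (difference -1.20 ± 0.15). The list of Egr and Nr4a factors also holds other genes tied to antigen receptor signals, such as Irf8, Spry1 and Cd69. Of its 24 genes 2 were higher and 4 lower in liver. Those lower included Nr4a3 (-0.93 ± 0.23) and Egr1 (-0.69 ± 0.19). Nr4a3 rose in spleen PSGL1lo cells with no call in liver, and Egr1 rose in both tissues. The Egr1 call was lost in 10 settings other than the 1.5-fold test, DESeq2, limma voom and the length offset among them. For Nr4a3 the call was lost in 6 such settings, DESeq2 among them.

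Genes of cell division fell in the low fraction of both tissues and fell further in spleen. Of 39 genes of the cell cycle and of DNA replication, 36 fell in liver and 38 in spleen, and the difference was called higher in liver for 15 and lower for 0. The median effect was -0.52 in liver and -1.04 in spleen, and the median difference 0.53. With the length offset 14 were called, and leaving out 1 library at a time gave 9 to 23, with 9 without liver PSGL1lo replicate 1 and 23 without replicate 2. In the spleen libraries the histone genes that were set aside, whose mRNAs peak in S phase, were at 4652 and 5485 CPM in the low and 13276 and 15510 CPM in the high fraction.

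The genes of mitosis led the list. Ccnb1, cyclin B1, which carries cells into mitosis, was at 4.92 and 3.37 CPM in liver PSGL1lo, 4.94 and 3.81 CPM in liver PSGL1hi, 12.8 and 11.2 CPM in spleen PSGL1lo and 43.2 and 39.8 CPM in spleen PSGL1hi. The liver fractions overlapped, and the difference was 1.75 ± 0.29 (adjusted p = 0.000863). Cdk1, the kinase that cyclin B1 activates, was at 28.6 and 20.3 against 33.7 and 31.5 CPM in liver and at 43 and 44 against 134 and 131 CPM in spleen, a difference of 1.20 ± 0.18 (adjusted p = 0.000479). Ube2c, an enzyme of the anaphase-promoting complex that helps to destroy cyclin B, followed with 1.24 ± 0.22 and Aurka, a spindle kinase, with 1.05 ± 0.21. Mki67, the proliferation marker Ki-67, fell by 0.52 ± 0.07 in liver and 1.02 ± 0.07 in spleen (0.50 ± 0.10).

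Genes that load and run the replication fork are given next, with no test of them against the mitotic genes. The 6 subunits of the MCM helicase on the list (Mcm2 to Mcm7) fell in both tissues, and the adjusted p of their differences in edgeR lay between 0.117 and 0.791. Mcm6 fell by 0.41 ± 0.07 in liver and 0.56 ± 0.07 in spleen, a difference between -0.06 and 0.35 (95% interval), and Mcm4 and Pcna had differences of -0.06 ± 0.10 and 0.00 ± 0.13.

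**Figure D4:**
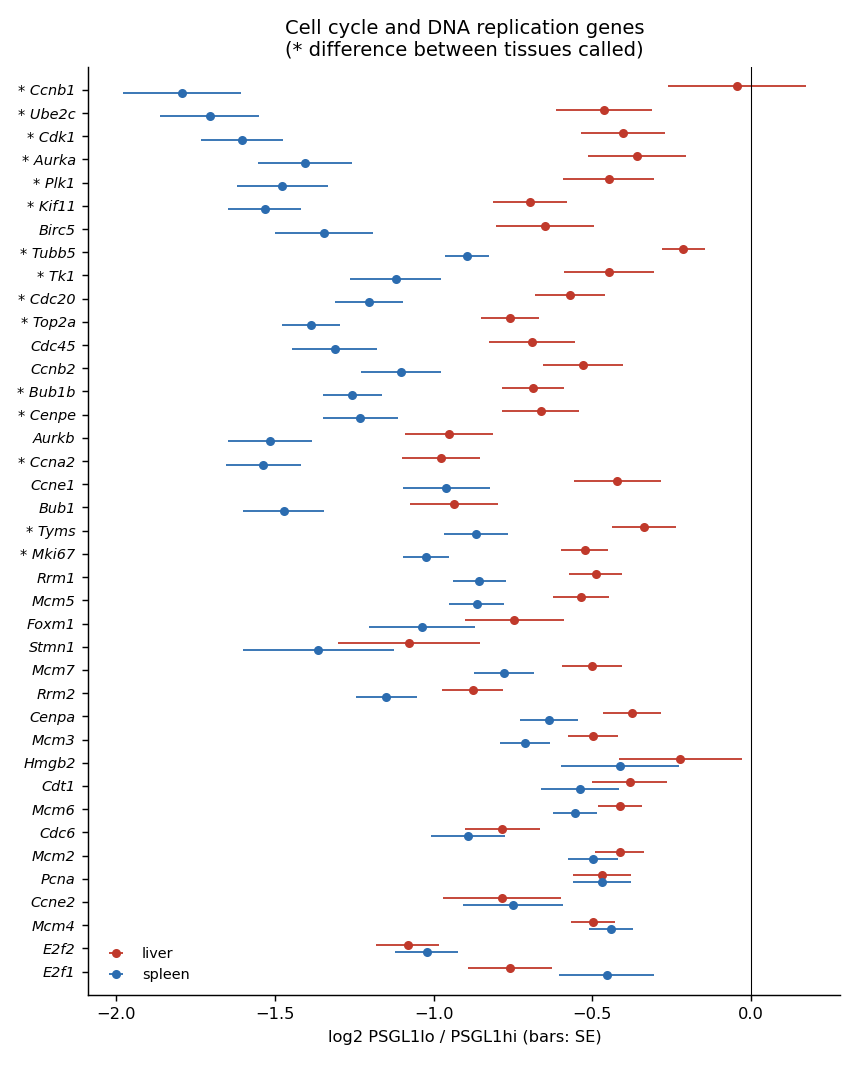
Log2 ratio of PSGL1lo to PSGL1hi with its standard error for the 39 cell cycle and replication genes in liver (red) and spleen (blue), ordered by the difference between tissues; a star marks the 15 with the difference called. The tissues lie far apart for Ccnb1, Ube2c, Cdk1 and Aurka at the top and meet for Pcna, Mcm4 and E2f2 at the bottom.

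Promoters of these genes are shown because their members moved together. The sequences are RefSeq's (build GRCm38.p6), the 250 bases before the transcription start on the strand of the gene, 5′ to 3′, for 3 genes with the difference called and for Mcm6, which was not called. Capitals mark matches on either strand to CCAAT, the box bound by NF-Y, to TTTGAA, the cell cycle homology region of mitotic genes, and to TTTGGCGC, a form of the E2F site. In Ube2c 1 pair of CCAAT matches on opposite strands overlaps, and no other matches overlap.
Ccnb1 (chr13:100786487-100786736, minus strand): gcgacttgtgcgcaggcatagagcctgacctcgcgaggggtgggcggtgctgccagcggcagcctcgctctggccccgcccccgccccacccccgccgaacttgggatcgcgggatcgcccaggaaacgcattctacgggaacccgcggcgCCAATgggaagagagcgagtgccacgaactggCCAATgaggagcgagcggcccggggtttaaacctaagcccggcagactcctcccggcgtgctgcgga
Ube2c (chr2:164769679-164769928, plus strand): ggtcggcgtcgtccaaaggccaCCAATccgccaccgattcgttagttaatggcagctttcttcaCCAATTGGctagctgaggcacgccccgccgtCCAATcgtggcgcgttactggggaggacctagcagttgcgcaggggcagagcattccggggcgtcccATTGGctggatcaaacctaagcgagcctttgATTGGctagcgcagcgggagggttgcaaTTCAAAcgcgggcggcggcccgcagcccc
Cdk1 (chr10:69352913-69353162, minus strand): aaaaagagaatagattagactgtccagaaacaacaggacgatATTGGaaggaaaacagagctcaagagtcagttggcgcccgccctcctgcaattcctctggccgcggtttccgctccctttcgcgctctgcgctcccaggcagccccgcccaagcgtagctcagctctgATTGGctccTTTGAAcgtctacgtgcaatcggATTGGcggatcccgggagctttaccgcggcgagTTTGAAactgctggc
Mcm6 (chr1:128359706-128359955, minus strand): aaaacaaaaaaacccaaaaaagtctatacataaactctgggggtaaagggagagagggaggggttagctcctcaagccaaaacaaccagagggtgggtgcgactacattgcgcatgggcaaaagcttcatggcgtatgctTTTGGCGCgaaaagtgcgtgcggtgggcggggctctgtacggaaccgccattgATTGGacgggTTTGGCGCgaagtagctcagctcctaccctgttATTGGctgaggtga

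The 3 promoters of called genes hold CCAAT 2, 6 and 3 times, and Mcm6 holds it 2 times beside 2 matches to TTTGGCGC. Of the 14 called cell cycle genes with a promoter in the table, 12 (85.7%) held CCAAT, against 14 of 19 (73.7%) of those not called, 40.2% of the 10729 genes tested with a promoter and 37.5% of all 27025 promoters. TTTGAA was in 6 of 14 (42.9%), 5 of 19 (26.3%), 13.1% and 18.3%, and TTTGGCGC in 0 of 14, 2 of 19 (10.5%), 0.932% and 0.485%. These are counts of letters in a window, with no test.

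Subunits of oxidative phosphorylation followed the same direction at a small size. Of 46 tested, 3 were called higher and 0 lower in liver, with a median difference of 0.26. In spleen 28 of the 46 fell in PSGL1lo cells and in liver 2. Atp5b, a catalytic subunit of ATP synthase, fell by 0.49 ± 0.07 in spleen, with an effect of -0.11 ± 0.07 in liver. With the length offset 2 were called and the median was 0.10, and without liver PSGL1lo replicate 1 the count was 0, against 21 without replicate 2.

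Receptors and cytokines were split, beside 2.51% called higher and 4.22% lower over all genes compared. Of 35 genes of cytokines and the TNF family 7 were higher and 6 lower in liver. Cd70, the ligand of CD27, was at 6.13 and 3.96 CPM in liver PSGL1lo against 1.75 and 1.63 CPM in liver PSGL1hi and at 3.86 to 5.19 CPM in spleen (1.75 ± 0.39). Of 25 genes of the common gamma chain and IL-6 receptor families 2 were higher and 4 lower, with Il9r, the interleukin 9 receptor, at 0.72 ± 0.14 and Socs3, a feedback inhibitor of STAT3, at -0.55 ± 0.12. Of 19 chemokine receptors 3 were higher and 2 lower, with Ccr9, a gut-homing receptor, at 1.03 ± 0.15 and Ccr2, a receptor for inflamed tissue, at 0.79 ± 0.13. Of 17 genes of TGF-beta signalling 0 were higher and 3 lower, among them the coreceptor Tgfbr3 (-0.78 ± 0.15) and Tgfb1 (-0.38 ± 0.11). Outside the 1.5-fold test the Tgfb1 call was lost in 7 settings. Of 18 genes that make selectin ligands, the sugars on PSGL1 itself among them, 1 was lower: Gcnt1, which builds the core 2 branch (-0.87 ± 0.18).

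Calls in the remaining lists were 3 or fewer in each direction. Over all genes compared, 2.51% were called higher and 4.22% lower in liver. Higher and lower calls were 0 and 3 of 18 for inhibitory receptors, 2 and 1 of 17 for NF-kappaB, 2 and 3 of 17 for integrins, 1 and 0 of 26 for glycolysis and hypoxia, 0 and 1 of 28 for cholesterol and fatty acid synthesis, and 0 and 2 of 23 for the integrated stress response. They were 0 and 2 of 18 for heat shock chaperones, 0 and 1 of 58 for ribosomal proteins, 1 and 0 of 11 for the SLAM family, 0 and 2 of 17 for the Bcl-2 family and 1 and 1 of 13 for regulators of G protein signalling. With the length offset they became 1 and 0 for NF-kappaB, 3 and 3 for integrins, 2 and 0 for glycolysis, 0 and 0 for cholesterol, 0 and 3 for the stress response and 0 and 2 for regulators of G protein signalling. Among lists described above, they became 4 and 2 for residency, 1 and 2 for Th1 and cytotoxic, 5 and 2 for regulatory T cell, 0 and 3 for AP-1, 2 and 3 for Egr and Nr4a and 6 and 6 for cytokine genes. They became 2 and 3 for cytokine receptors, 0 and 2 for TGF-beta signalling and 1 and 1 for selectin ligand synthesis.

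**Figure D5:**
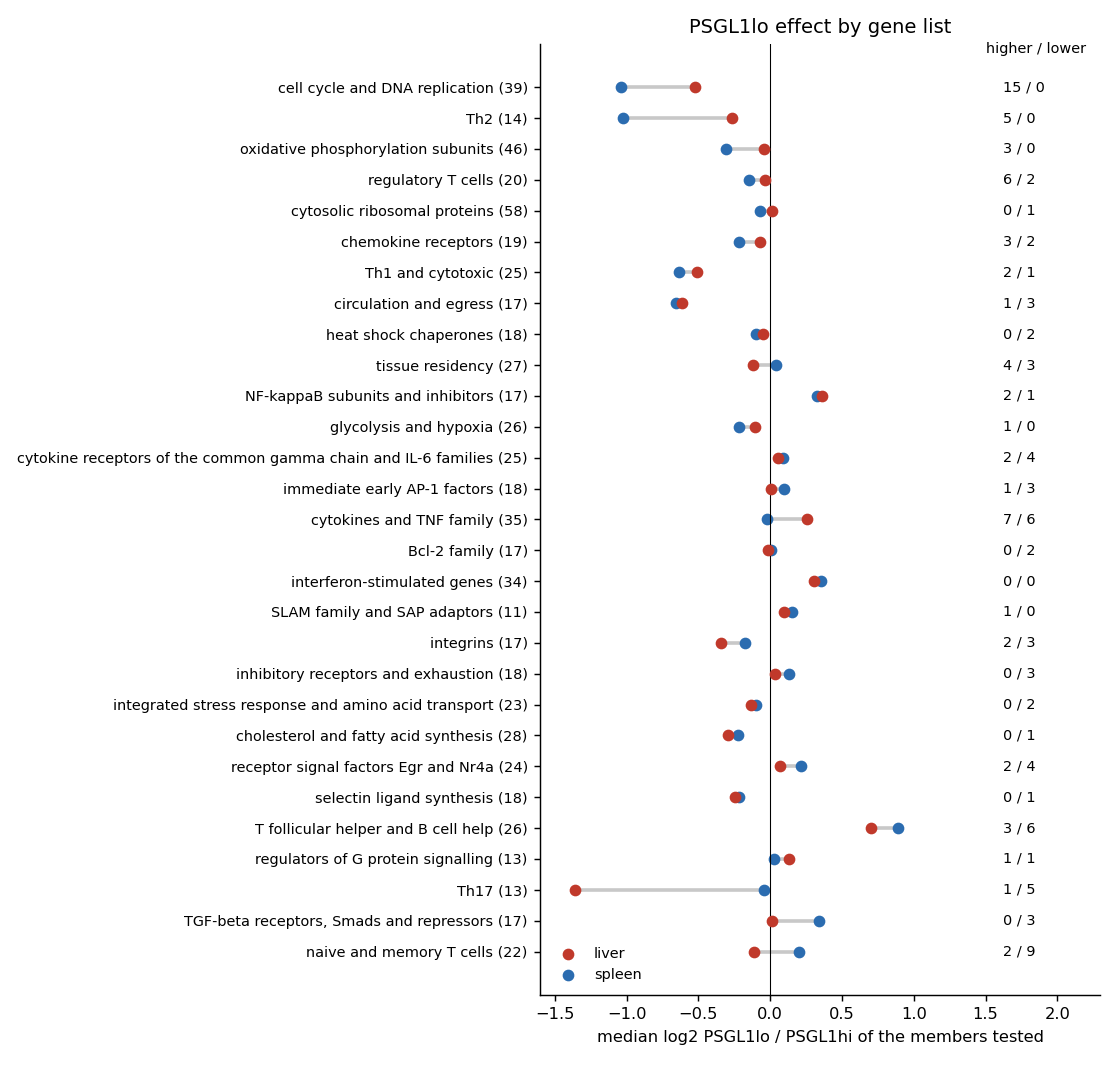
Median log2 ratio of PSGL1lo to PSGL1hi over the tested members of each gene list (number in brackets) in liver (red) and spleen (blue), ordered by the median difference, with the number of members called higher and lower in liver at the right. Cell cycle and Th2 genes stand at the top with 15 and 5 higher calls, and naive and memory genes at the bottom with 9 lower calls.

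Genes with opposite effects included a group that macrophages also express. Vcam1, an adhesion protein that binds integrin alpha 4 beta 1, was at 8.82 and 5.73 CPM in liver PSGL1lo, 3.55 and 2.39 CPM in liver PSGL1hi, 49.8 and 55 CPM in spleen PSGL1lo and 124 and 126 CPM in spleen PSGL1hi. The low fraction was the higher in liver and the lower in spleen, without overlap, and the difference was 2.59 ± 0.24 (adjusted p = 2.98e-06). Arg1, the arginine-degrading enzyme, was at 1.98 and 1.6 against 0.944 and 0.87 CPM in liver and at 18.9 and 21.8 against 40.1 and 45.1 CPM in spleen (2.06 ± 0.28, adjusted p = 0.00019). Ctsl, a lysosomal protease (1.80 ± 0.21), Cfp, which encodes the complement protein properdin (1.61 ± 0.27), and Plxnb2, a semaphorin receptor (1.57 ± 0.36), were arranged in the same way.

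Lpl, lipoprotein lipase, rose in liver by 1.87 ± 0.21 and was not called in spleen (-0.44 ± 0.17), a difference of 2.31 ± 0.27. Chil3, a chitinase-like protein of macrophages, was at 10.9 and 3.33 CPM in liver PSGL1lo and 6.56 and 1.81 CPM in liver PSGL1hi, where replicates differed more than the fractions, against 30.8 and 33.7 and 77.8 and 84.7 CPM in spleen (2.24 ± 0.51). Rnase6, a ribonuclease of myeloid cells (2.15 ± 0.65), and Tmcc2 (1.93 ± 0.46) completed the named genes of this direction. The Rnase6 call was lost with the length offset.

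Markers of other cells moved with these genes. Of 28 myeloid markers tested, 6 had a higher and 1, Itgax, a lower effect in liver, with a median difference of 0.91. Their summed level was 258 to 365 CPM in liver PSGL1lo, 227 to 287 CPM in liver PSGL1hi, 601 to 612 CPM in spleen PSGL1lo and 936 to 1003 CPM in spleen PSGL1hi, and Clec4f, a marker of Kupffer cells, was at 0 in spleen PSGL1hi. C1qa, a complement chain of macrophages, was at 3.52 and 1.22 CPM in liver PSGL1lo, 2.61 and 1.6 CPM in liver PSGL1hi, 30.7 and 29.4 CPM in spleen PSGL1lo and 68.4 and 72.8 CPM in spleen PSGL1hi (1.52 ± 0.37). Replicate 1 of liver PSGL1lo held more of these RNAs than replicate 2, and with the length offset 4 of the 28 were called higher. Without that replicate 0 were called higher, against 11 without replicate 2 and 1 to 5 without 1 of the other libraries. The differences of Vcam1, Arg1, Ctsl and Cfp passed the test in every alternative. The part of myeloid RNA in the results on Vcam1, Arg1, Ctsl, Cfp, Plxnb2, Lpl, Chil3 and Rnase6 was not tested. In bulk samples fewer cells of a type and less RNA per cell cannot be told apart.

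The hepatocyte markers had a median difference of 1.39, a fitted value that includes 7 genes at 0 in every spleen library. In liver, 10 of 16 were called higher in PSGL1lo than in PSGL1hi cells, and in spleen 1 was called higher and 2 lower. They summed to 96.3 to 126 CPM in liver PSGL1lo, 49.8 to 59.7 CPM in liver PSGL1hi, 90.6 to 94.1 CPM in spleen PSGL1lo and 197 to 210.1 CPM in spleen PSGL1hi, and 2 of 16 were called higher in liver, Apoe (1.92 ± 0.23) and Trf (1.54 ± 0.16), which macrophages and T cells can also make. Alb, the albumin gene, was at 38.8 and 31.8 CPM in liver PSGL1lo, 16.3 and 13.1 CPM in liver PSGL1hi and at most 0.149 CPM in spleen, and 8 of the 16 markers were at 0 in both libraries of spleen PSGL1hi. Cd8a and Cd8b1, markers of CD8 T cells, summed to 28 to 31.5 CPM in liver PSGL1lo, 141 to 142 CPM in liver PSGL1hi, 11.8 to 12.3 CPM in spleen PSGL1lo and 77.5 to 77.6 CPM in spleen PSGL1hi, and Cd8a had a difference of 0.88 ± 0.17. Siglech, a marker of plasmacytoid dendritic cells, was at 22.6 and 24 CPM in spleen PSGL1hi and at most 0.225 CPM in the other 6 libraries. By edgeR 0 of 9 NK cell, 11 B and plasma cell, 5 erythroid, 2 NKT and gamma delta T cell and 15 endothelial and stromal markers tested were called, with 5 at an unadjusted p under 0.05, 0 called by DESeq2 and 1 B and plasma cell marker called higher by limma voom. The part of any of these cells in the differences was not tested.

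Among genes of at least 10 CPM in 1 group that fell in liver and rose in spleen, those with the strongest pair of effects were Rn45s, Fcho2, Diaph2, St8sia1, Dnajb9 and Hsph1. Hsph1, a large heat shock chaperone, was at 72 and 82.5 against 97.4 and 104 CPM in liver and at 95.5 and 103 against 74.5 and 75.5 CPM in spleen, so that the low fraction was the lower in liver and the higher in spleen (-0.79 ± 0.14, adjusted p = 0.00164). St8sia1, which makes the ganglioside GD3, was at 34.4 and 36.1 against 52 and 54.7 CPM in liver and at 23.9 and 22.2 against 19.2 and 15 CPM in spleen (-1.03 ± 0.14, adjusted p = 0.000194). Dnajb9, a chaperone of the endoplasmic reticulum, had -0.82 ± 0.16, Fcho2, an endocytosis protein, -1.05 ± 0.16, and Diaph2, an actin-nucleating formin, -1.04 ± 0.21. The effects of Hsph1, St8sia1, Dnajb9, Fcho2 and Diaph2 were between 0.39 and 0.60 in size in both tissues. Il23r, at under 10 CPM in every library and therefore not eligible by that rule, combined -1.81 with 2.11.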

How the data were processed

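The deposited values were raw counts per gene in 1 table of 14 libraries, made by the authors on mouse build mm9 with HTSeq after alignment by TopHat2 2.0.8, per the submitters' processing notes. For the annotation and the strand setting nothing is given in the sources used here, so overlapping and antisense genes cannot be told apart. RNA was isolated with an RNeasy kit and libraries were made with a kit that selects mRNA, per the labels' protocols.

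Counts were scaled by TMM and tested with edgeR 4.0.16 (R 4.3.3), quasi-likelihood F test, in 1 fit of 7 groups and 14 libraries (common biological coefficient of variation 7.35%, 7 residual degrees of freedom), after edgeR's filter on low counts. P-values were adjusted by Benjamini-Hochberg over the 13780 genes tested, at 0.05. Standard errors were taken as the size of the log2 difference over the root of F, intervals are 95%, and levels are TMM-scaled CPM. The difference of Bcl6 between tissues is given without a standard error because that formula fails near a difference of 0. On simulated data for this comparison the fit recovered changes as given in the limits of the closing section. Chi-square over degrees of freedom between replicates was 2.97 to 18.6, so no library was a duplicate of another.

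The members, gene lists and promoter motifs were chosen with earlier results of these data known. Named genes are Selplg, the 10 called genes with the largest difference in each direction (at least 10 CPM in 1 group and over 3 counts in each of the 8 libraries), the 6 in each direction with the strongest opposite effects, up to 4 called members of each list, lineage genes, and called or most abundant markers of other cells. Rora, Csf2, Il17a, Gata3, Satb1, Maf, Tnfrsf4, Tnfrsf9, Cd70, Clec4f, E2f2, Pcna and the Mcm genes fall outside that rule and were chosen after their values were seen. The list of histone symbols to set aside held older symbols only and was extended to the current ones that the table uses; microRNA host genes were set aside with the small RNAs. The table holds 26 entries that look like dates, 20 of them tested, which were not named. Some results of the named genes are not reported here. Transcript lengths are those of the longest GENCODE transcript of a symbol. Alternatives were another scaling, filter, tool, set of libraries, replicate block, threshold, each library left out, and offsets for length and GC content.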

Additional observations from a re-analysis of the deposited data

Results flagged for a closer look

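The test of the difference between tissues was passed by 340 genes with a higher and 571 genes with a lower PSGL1lo effect in liver, and 44 genes were called in opposite directions. The values below are log2 differences, liver effect minus spleen effect, for the genes that the rule on size named.

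The effect was higher in liver for Cyp11a1 by 2.59, Vcam1 by 2.59, Lpl by 2.31, Chil3 by 2.24, Rnase6 by 2.15, Ccl1 by 2.07, Arg1 by 2.06, Penk by 2.04 and Tmcc2 by 1.93. Calls held in all 19 alternatives for 6 of these 9. Rnase6 lost its call in 12 settings other than the 1.5-fold test, and Chil3 and Tmcc2 in 3 each.

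The effect was lower in liver for Itgax (-2.79), Atf3 (-2.51), Ccr6 (-2.33), Nav1 (-2.30), Igf1r (-2.01), Cd244a (-1.82), Il1r1 (-1.70), Nhsl2 (-1.68), Iqcn (-1.55) and Apol8 (-1.46). Calls held in all 19 alternatives for 7 of these 10, and outside the 1.5-fold test Apol8 lost its call in 8 settings, Nhsl2 in 6 and Iqcn in 1.

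Opposite effects with the liver higher were found for Vcam1, Arg1, Ctsl (1.80), Il4 (1.75), Cfp (1.61) and Plxnb2 (1.57), and with the liver lower for Rn45s (-1.25), Fcho2 (-1.05), Diaph2 (-1.04), St8sia1 (-1.03), Dnajb9 (-0.82) and Hsph1 (-0.79). The last 6 lost their call only in the test against a 1.5-fold difference. Rn45s also differed in level between the tissues, and the part of this in its difference was not tested.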

How the results depend on the processing

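Counts of 340 higher, 571 lower and 44 opposite genes stayed within 1.5 times under another scaling, DESeq2, limma voom, removal of the set-aside genes first and a block common to all tissues. Without the filter on low counts 88 genes were opposite. With only the 8 libraries 222 were higher and 345 lower, and against a 1.5-fold difference 28, 14 and 2 passed. With the length offset 350 were lower. Leaving out 1 library gave 117 to 897 higher, 198 to 1553 lower and 16 to 270 opposite, where the lone library of a group was assumed to vary like the other groups. A replicate block within each tissue gave 563, 946 and 110, but it is not settled whether the numbers pair the libraries (correlation of deviations 0.05 in liver, 0.24 in spleen and 0.24 in lung).

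Outside the 1.5-fold test, Atp5b, Bach2, Il12rb2, Lrrc32 and Nt5e each lost their call in 4 settings. Differences near 0 changed sign. Bcl6 was at -0.011 with voom, -0.0045 with the 8 libraries, -0.0018 and -0.0055 with a replicate block within or across tissues, and -0.13 to 0.16 without 1 library. Ccr7 was at -0.032 and -0.061 with the length and the length and GC offsets, and at -0.19 to 0.45 without 1 library. Gzmb was at -0.067 and -0.036 with these offsets, and Foxp3 at -0.081 to 0.23 without 1 library. The cause was not tested. In simulated data on 13636 genes, 86% of differences of 1 on the log2 scale and 100% of those of 2 were recovered, so smaller differences can be missed at 2 libraries a group. These differences were placed only in genes over 2 CPM in each liver and spleen group, and recovery below that level was not measured. The simulated spread was the same in all groups, while in the data the replicates of liver PSGL1lo varied most (12.3%). Recovery in the data may therefore be lower.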

Other observations

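The genes in these paragraphs were chosen after their values were seen. Il1r2, the decoy receptor that captures interleukin 1, was low in liver PSGL1hi cells alone. It was at 75.4 and 64.8 CPM in liver PSGL1lo, 19.4 and 18.1 CPM in liver PSGL1hi, 90.4 and 102 CPM in spleen PSGL1lo and 75.2 and 84.6 CPM in spleen PSGL1hi, a difference of 1.64 ± 0.16 (edgeR, adjusted p = 4.8e-06). The signalling receptor gene Il1r1 had the reverse arrangement, with its high level in that same group. Vdr, the vitamin D receptor, resembled Il1r2, with 19.7 and 21.3 CPM in liver PSGL1lo, 7.05 and 5.18 CPM in liver PSGL1hi and 19.6 to 25.2 CPM in the 4 spleen libraries (1.54 ± 0.22, adjusted p = 0.000271). Irs2, an adaptor of insulin and IL-4 signalling, was lowest in liver PSGL1lo, at 3.87 and 4.72 CPM against 14.8 and 15 CPM in liver PSGL1hi and 64.2 to 99.4 CPM in spleen (-1.44 ± 0.18, adjusted p = 7e-05).

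C3 was arranged as the properdin gene Cfp was. C3, the central complement protein, was at 17.5 and 10 CPM in liver PSGL1lo, 8.18 and 5 CPM in liver PSGL1hi, 39.2 and 38.6 CPM in spleen PSGL1lo and 74.2 and 70.9 CPM in spleen PSGL1hi (2.01 ± 0.35, adjusted p = 0.00158). Cfb, factor B of the alternative pathway, had a difference of 1.63 ± 0.37 (adjusted p = 0.0114), with no call in liver. The lymphoid progenitor marker Ly6d was at 3.84 and 4.71 CPM in spleen PSGL1hi and at most 0.344 CPM in the other 6 libraries. The part of myeloid and plasmacytoid dendritic cells in these values was not tested.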
